A study of Mus musculus with 30 samples.

Results

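The cytosolic ribosome is built from a large and a small subunit, and 91 of the 30952 genes in the deposited expression table carry the name of one of its proteins. The rule used annotation alone: protein-coding genes named Rpl or Rps with a number, Rplp0 to Rplp2 or Rpsa, without the Rps6k kinases. No expression value entered the rule, but it was set with earlier results of these data known. By name they divide into 46 large subunit genes, 31 small subunit genes, 7 paralogs, 6 further copies (names ending in ps or rt with or without a number) and Rps19bp1, which encodes a protein that binds Rps19 and is no part of a subunit. The 7 paralogs are Rpl3l, Rpl7l1, Rpl10l, Rpl22l1, Rpl36al, Rpl39l and Rps27l. The 46 and 31 subunit genes, 77 in all, are called the core genes here.

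The values come from RNA sequencing of microglia and astrocytes sorted from mouse spinal cord, with 15 libraries of each cell type. In each cell type 4 libraries came from naive mice that carry no treatment, 6 from EAE-vehicle mice and 5 from EAE-RIPK1inh mice, all C57BL/6. EAE, experimental autoimmune encephalomyelitis, is a model of multiple sclerosis, here induced in female mice of 8 to 10 weeks with the myelin peptide MOG35-55. At a clinical score of around 1 these mice were given, by gavage 2 times a day for 3 days, either the vehicle (20% Captisol) or the RIPK1 kinase inhibitor GSK'547 at 50 mg/kg, which the study calls RIPK1inh-1. Microglia were gated as CD11b+CD45intCX3CR1+ and astrocytes as GLAST+CD11b-CD45-CD140a-. The labels do not say whether a microglial and an astrocytic library with the same number came from the same mouse.

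Ribosomal proteins assemble with ribosomal RNA into the particle that translates mRNA, so cells make the proteins of both subunits together. Their mRNAs begin with a run of pyrimidines, the 5′ terminal oligopyrimidine or TOP motif, through which the kinase mTOR and the RNA-binding protein LARP1 control their translation. Activated glia enlarge and make new proteins, which draws on this machinery.

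The bases around the start of each gene were examined for runs of C or T, because a pyrimidine run is the feature that ribosomal protein mRNAs are known for. A RefSeq start was available for 66 of the 91 genes (GRCm38.p6), and 35 of them, or 53.0%, had at least 8 letters C or T in a row on the sense strand within 30 bases on either side of it. Of all 27025 genes with a RefSeq start, 25.8% had such a run. On the other strand it was found in 12.1% of the ribosomal protein genes and 28.7% of all genes. A run counted here need not begin the mRNA. That of Rpl5 begins 20 bases before the start, and all of its 9 letters lie before the start. Whether a run opens the mRNA, as a TOP motif does, was not tested. The 10 sequences shown here, each of 30 bases, are from genes whose values are described further on, with the longest run of C or T in capitals, as far as it lies within 30 bases of the start on either side.
Rps18, chr17:33955648-33955677 (minus strand): gtcacttccgCTCTCTCTTCCacaggaggc
Rps6, chr4:86857349-86857378 (minus strand): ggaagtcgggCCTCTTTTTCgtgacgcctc
Rpl15, chr14:18270968-18270997 (minus strand): gagaaagCCTTCTTCCTTTCCTCTggcggc
Rpl27a, chr7:109519186-109519215 (plus strand): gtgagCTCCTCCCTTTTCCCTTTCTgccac
Rpl38, chr11:114668568-114668597 (plus strand): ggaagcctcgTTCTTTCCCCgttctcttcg
Rpl37a, chr1:72711271-72711300 (plus strand): atgcgcattgcgTCCCTTCctcttcggact
Rpl5, chr5:107900497-107900526 (plus strand): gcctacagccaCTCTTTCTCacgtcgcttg
Rps12, chr10:23787182-23787211 (minus strand): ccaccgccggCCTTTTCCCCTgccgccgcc
Rpl12, chr2:32961701-32961730 (plus strand): gagcaggatccgTCTTTTCggctttcggct
Rpl10, chrX:74270781-74270810 (plus strand): cccctggctgtaaCTCTatggttgttacag
The first 5 and Rpl37a rose in microglia in EAE, and the last 4 were not called higher in EAE in either cell type. Rpl37a rose by 1.65 in microglia (limma adjusted p = 0.0018) and by 1.60 in astrocytes (limma adjusted p = 0.052). With the inhibitor it fell in astrocytes (limma adjusted p = 0.84). The capitals span 20 letters in Rpl27a and 17 in Rpl15, both of which rose, but also 11 in Rps12 and 9 in Rpl5, which did not pass. The longest run inside the window had 7 letters in Rpl37a and Rpl12 and 4 in Rpl10. The run of Rpl37a goes on past the edge of the window and has 13 letters in all, and the letters cccct at the left end of the Rpl10 stretch lie before its window. With runs followed past the edges, an alternative added after the data were seen, 45 of the 66 ribosomal protein genes had at least 8 letters in a row, or 68.2%, against 30.5% of all genes. CTTTCC, searched on either strand in the same window and overlapping the run in part, was found in 22.7% of the ribosomal protein genes and 6.44% of all genes. TATAAA was found in 6.06% and 3.45%.

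Values are log2 FPKM, that is read pairs per length of gene and depth of library, and every library holds the same sorted values, so a value says where a gene stands among the other genes of its library and no depth or counting error could be computed. In the lowest stretch of each library the values rise with the row number of the table, up to 2.74 at most, and a gene within that stretch is said to have no signal there. Genes with signal ranged from 8710 to 20398 over the microglial libraries and from 6728 to 22981 over the astrocytic libraries. The microglial library EAE-RIPK1inh 3 had the highest mean of 9 monocyte and neutrophil markers, at 9.12. Microglia markers averaged 11.5, 10.1 and 10.4 in naive, EAE-vehicle and EAE-RIPK1inh microglia and 1.88 in naive astrocytes, and astrocyte markers averaged 9.20, 8.34 and 8.77 in the astrocytes and 1.47 in naive microglia, each list being highest in the cells labelled for it (Slc1a3 and Cx3cr1, among them, encode antigens of the sort). The astrocytic libraries held markers of other cells as well. In EAE-vehicle astrocytes the oligodendrocyte markers averaged 8.77, above the astrocyte markers at 8.34. Neuron markers averaged 4.80, 5.24 and 5.03 and erythrocyte markers 6.91, 4.65 and 3.66 in naive, EAE-vehicle and EAE-RIPK1inh astrocytes. In RNA of sorted cells, fewer cells of a type and less RNA per cell cannot be told apart.

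In naive mice the core genes were among the abundant mRNAs of both cell types but differed widely among themselves. In naive microglia their means had a median of 5.47 with Rpl17 the lowest at 1.87, and they ran in naive astrocytes from 1.52 (Rps12) to 7.88 (Rpl41), with a median of 5.45. Large and small subunit genes stood at similar levels, with medians of 5.45 and 5.47 in naive microglia and 5.53 and 5.20 in naive astrocytes. Over the 77 genes the naive means of both cell types followed each other with r = 0.84, a description across genes that share annotation and length. Among the highest were Rps14 at 8.01 and Rpl4 at 7.92 in naive microglia, and Rpl41 at 7.88 and Rps14 at 7.82 in naive astrocytes. Rpl41, the smallest protein of the ribosome, stood at 7.76, 8.15, 7.29 and 8.31 in the 4 naive astrocytic libraries. Neighbours among these named genes differed by less than the spread between mice, whose median SD per gene over the core genes was 0.59 in naive microglia and 0.54 in naive astrocytes. The lowest 3 core genes were Rpl17, Rpl36a and Rpl12 in naive microglia, at 1.87, 2.35 and 2.41, and Rps12, Rps27 and Rpl12 in naive astrocytes, at 1.52, 1.81 and 1.93.

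A few members had a different level in the 2 naive cell types. A gene was called when its fold change, up or down, exceeded 1.5 and its unadjusted p in limma was under 0.05, which is the cutoff of the study, and 13 of the 91 were called higher and 5 lower in naive microglia than in naive astrocytes. Of all 30952 genes 10.0% were called higher and 9.64% lower in that comparison, so the share among ribosomal protein genes was near the background. Rpl10, which sits at the core of the large subunit near the catalytic centre, differed most. It stood at 7.37, 6.30, 5.58 and 5.89 in naive microglia and at 0.16, 2.68, 3.78 and 1.39 in naive astrocytes, with no overlap. The difference was 4.28 on the log2 scale (SE 0.65, limma adjusted p = 1.40e-05, exact permutation p = 0.0286, the smallest that 4 against 4 mice allow). Rpl10a was higher by 2.10 (limma adjusted p = 6.06e-05), Rps27 by 2.08 (limma adjusted p = 0.0078) and the paralog Rps27l by 1.41 (limma adjusted p = 0.019). Rpl36a was lower by 1.39 in naive microglia (limma adjusted p = 0.014), Rpl23a by 1.29 (0.027) and Rpl24 by 1.02 (0.0099).

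In microglia nearly every core gene was higher in EAE-vehicle than in naive mice. Of the 77 core genes 73 rose and 1, Rpl10, fell, with 43 of 46 large and 30 of 31 small subunit genes higher. The median change was 1.65 on the log2 scale for the large subunit, a fold of 3.13, and 1.84 for the small subunit, a fold of 3.58, while the median over all 28958 genes tested was -0.02. Of all genes tested, 6.13% were called higher and 5.86% lower. The background for a rise at an adjusted p under 0.05 in limma was 2.37%, and 66 of the 77 reached it. In 61 of the 77 all EAE-vehicle libraries stood above all naive libraries, against 2.93% of all genes. The mean over the core genes was 5.00 to 5.82 in the 4 naive libraries and 6.80 to 7.33 in the 6 EAE-vehicle libraries, so the groups did not overlap in this mean either.

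**Figure D1:**
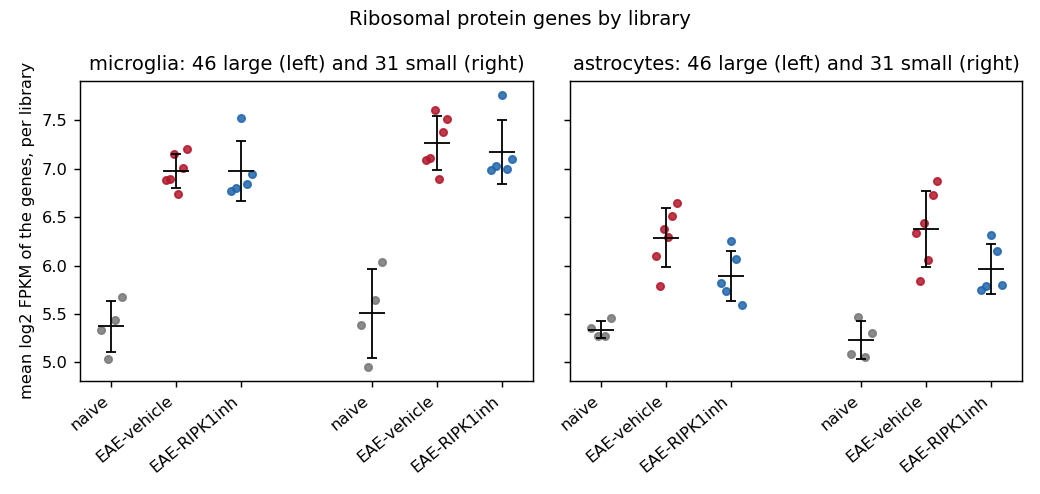
Mean log2 FPKM of the 46 large (left in each panel) and 31 small (right) subunit genes in each library of microglia and astrocytes, by group. Points are libraries, bars the mean and SD over libraries. The core mean was 5.43 ± 0.34, 7.09 ± 0.21 and 7.06 ± 0.32 in naive, EAE-vehicle and EAE-RIPK1inh microglia, and 5.29 ± 0.10, 6.32 ± 0.33 and 5.92 ± 0.25 in the same groups of astrocytes (SD, n = 4, 6 and 5).

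Rps18 and Rps19 of the small subunit were among the genes with the smallest p. Rps18 (17:33951999-33956001, minus strand), which lies in the head of the small subunit, stood at 6.52, 6.20, 7.14 and 7.40 in naive and at 8.46, 9.09 and 9.34 (lowest, median and highest of 6) in EAE-vehicle microglia. Wherever 3 values stand for an EAE-vehicle group they are the lowest, the median and the highest of its 6 libraries. Rps18 rose by 2.22 (SE 0.23, limma adjusted p = 4.50e-05, exact permutation p = 0.0048, the smallest that 4 against 6 mice allow) with every EAE-vehicle library above every naive one. Rps19, the gene most often mutated in Diamond-Blackfan anaemia and needed for maturation of the small subunit RNA, stood at 6.53, 6.33, 6.97 and 7.15 in naive and at 8.15, 8.65 and 8.82 in EAE-vehicle microglia. Its rise was 1.84 (SE 0.20, limma adjusted p = 5.68e-05), again without overlap.

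Rpl23, Rpl15 and Rps6, which the rule for named genes lists, rose in microglia too. Rpl15 (14:18267823-18271391, minus strand) was tight in naive microglia at 4.08, 4.01, 4.31 and 4.11 and stood at 5.43, 5.83 and 6.20 (lowest, median and highest of 6) in EAE-vehicle microglia, a rise of 1.68 (SE 0.20, limma adjusted p = 0.00019). Rps6 (4:86854660-86857412, minus strand), the protein that S6 kinase phosphorylates downstream of mTOR, stood at 4.17, 3.91, 4.63 and 4.23 in naive and at 5.63, 5.74 and 5.96 in EAE-vehicle microglia, a rise of 1.54 (SE 0.17, limma adjusted p = 7.55e-05). Rpl23, which can bind MDM2 when it is free of the ribosome, rose by 2.13 (SE 0.25, limma adjusted p = 0.00014). None of the 3 overlapped between the groups. Rpl41 and Rps14, abundant in naive astrocytes, rose in microglia as well, by 1.92 and 1.64. The proteins of the stalk that recruits elongation factors, which were picked out after their values were seen, rose together: Rplp0 by 1.52, Rplp1 by 1.58 and Rplp2 by 2.01.

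The size of the rise differed from gene to gene, with quartiles of 1.41 and 2.12 over the large subunit and 1.53 and 1.99 over the small subunit. Rpl39 (X:37082520-37085402, minus strand), a small protein at the exit tunnel, was singled out after its values were seen. It stood at 2.61, 1.84, 3.12 and 5.65 in naive and at 5.40, 5.99 and 7.00 (lowest, median and highest of 6) in EAE-vehicle microglia, where the library naive 4 lay within the EAE-vehicle range. Its change was 2.75 (SE 0.63, limma adjusted p = 0.022, exact permutation p = 0.0190). Rpl36a, on the same chromosome, stood at 2.73, 1.60, 2.17 and 2.92 against 4.39, 4.90 and 5.51, a rise of 2.59 (SE 0.32, limma adjusted p = 0.00022) without overlap. Rpl4, among the most abundant at the start, rose by 0.80 (SE 0.16, limma adjusted p = 0.0102).

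Rpl10 went the other way. Against the naive values of 7.37, 6.30, 5.58 and 5.89, the 6 EAE-vehicle microglial libraries stood at 3.44 to 5.87 with a median of 4.79, so the highest of them reached into the naive range. The fall was 1.52 on the log2 scale, a change of -1.52 (SE 0.47, limma adjusted p = 0.105, exact permutation p = 0.0143), and it was called only by the unadjusted cutoff. In EAE-RIPK1inh microglia Rpl10 stood at 6.54, 5.69, 5.34, 4.86 and 5.00, between the other groups and not called against either. Rpl10 (X:74270812-74273135, plus strand) carries the confounded mark of the deposited annotation, and whether it shares reads with copies such as Rpl10-ps3 and Rpl10l was not tested. The other 3 core genes that were not called in microglia were Rpl5, which with Rpl11 and 5S RNA forms the central protuberance, at 0.26 (SE 0.56), Rpl12 of the stalk base at 0.36 (SE 0.51) and Rps12 at 0.42 (SE 0.48). All 4 carry the mark, and all 4 varied widely between mice. The mark stands on 51 of the 91 genes, 56.0%, and on 50.8% of all genes, and its meaning is not given in the sources used here. Of the 31 core genes without it, 31 rose, with a median of 1.70, and of the 46 with it, 42 rose.

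**Figure D2:**
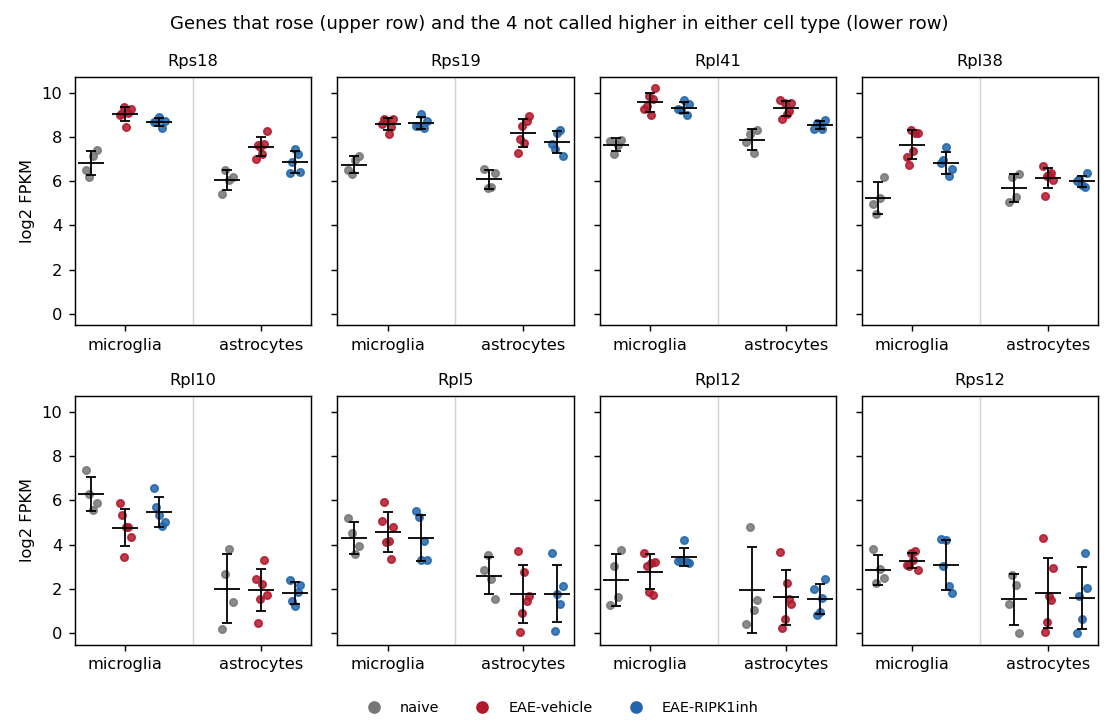
Log2 FPKM of 8 genes in every library: Rps18, Rps19, Rpl41 and Rpl38, which rose in microglia in EAE (upper row), and Rpl10, Rpl5, Rpl12 and Rps12, which were called higher in neither cell type (lower row). Points are libraries (4 naive, 6 EAE-vehicle, 5 EAE-RIPK1inh per cell type) with the mean and SD. In the lower row the groups overlap in both cell types.

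The paralogs were not uniform. Of 7, 3 rose in microglia in EAE, each a gene with signal in every library, where 6.13% of all genes were called higher and 5.86% lower. Rpl36al stood at 6.54, 5.73, 6.15 and 6.39 in naive and at 6.79, 7.48 and 7.88 (lowest, median and highest of 6) in EAE-vehicle microglia, a rise of 1.21 (SE 0.24, limma adjusted p = 0.0093) without overlap. Rpl22l1, the partner gene of Rpl22, stood at 4.65, 4.56, 4.69 and 5.18 against 5.63, 5.80 and 6.33, a rise of 1.10 (SE 0.24, limma adjusted p = 0.017), also without overlap. Rps27l, which p53 can induce, stood at 7.21, 6.44, 6.85 and 7.58 against 7.23, 8.14 and 8.63, a rise of 1.05 (SE 0.30, limma adjusted p = 0.074) with overlapping groups. Rps27l had the higher value of its pair in microglia, at a naive mean of 7.02 against 3.89 for Rps27, and Rpl36al likewise at 6.20 against 2.35 for Rpl36a. Whether Rps27 and Rpl36a share reads with copies such as Rps27rt and Rpl36a-ps1 was not tested.

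Rpl7l1, a nucleolar relative of Rpl7, changed by 0.28 (SE 0.47) and was not called, and its sign turned without the library naive 4, where it was lowest at 2.85. The other 3 paralogs were at or near 0 and had no signal in most libraries: Rpl3l, the striated muscle form, in 21 of 30, Rpl39l in 20 of 30 and Rpl10l, a testis form, in 27 of 30. Of the copies, Rps27rt rose by 1.62 (SE 0.42, limma adjusted p = 0.048) and Rpl36a-ps1, listed at 0 in all naive microglia, by 0.63 (limma adjusted p = 0.32), out of 5 that varied in microglia. Among 172 pseudogenes with ribosomal protein names that were tested in microglia, 5 were called higher and 2 lower, with a median of 0.00. Over all genes 6.13% were called higher and 5.86% lower, so both shares among the pseudogenes were below the background.

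**Figure D3:**
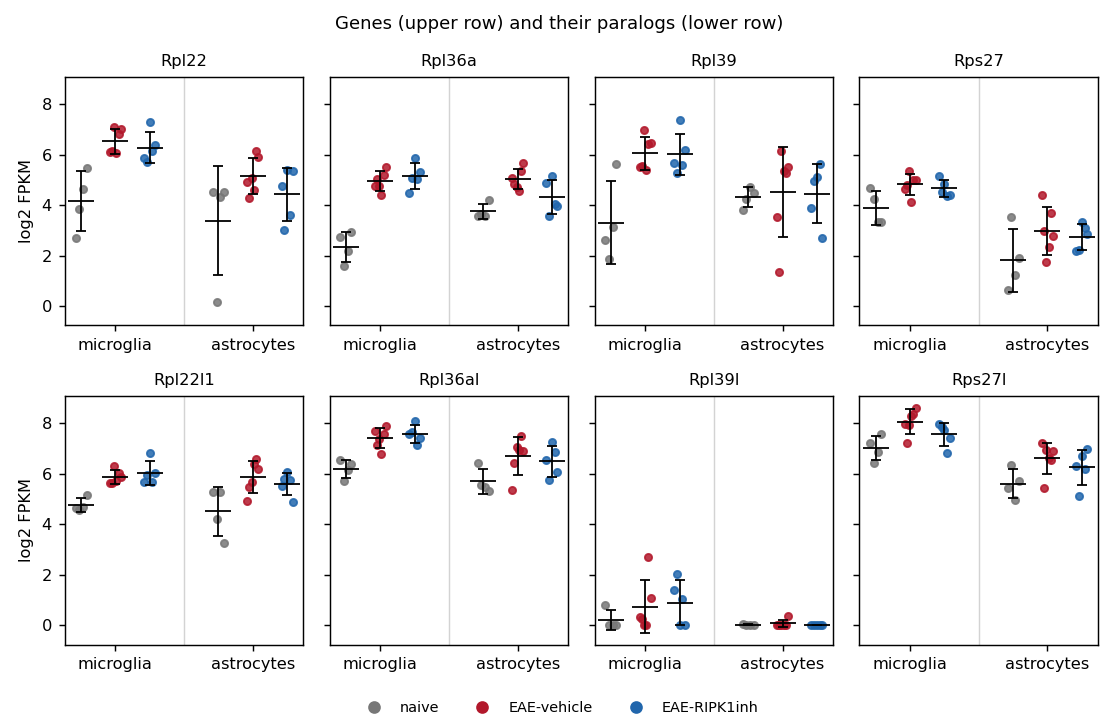
Log2 FPKM of Rpl22, Rpl36a, Rpl39 and Rps27 (upper row) and of their paralogs Rpl22l1, Rpl36al, Rpl39l and Rps27l (lower row) in every library, with the mean and SD per group of 4, 6 and 5. Rpl36al and Rps27l stand above Rpl36a and Rps27 in every group mean, and Rpl39l is at or near 0 in most libraries.

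Other genes of the translation machinery were counted from lists drawn from general knowledge of the pathway. Of the ribosomal proteins under other names 3 of 3 rose in EAE-vehicle microglia, among them Fau by 1.87 and Rack1 by 1.53. Of 15 mRNAs that carry a TOP motif but encode no ribosomal protein, 14 rose, with a median of 1.44, among them the elongation factor subunits Eef1b2 by 2.15 and Eef1g by 2.02 and the initiation factor Eif3f by 2.19. Of 20 ribosome biogenesis genes 4 rose and 1 fell, with a median of 0.45, where 6.13% of all genes were called higher and 5.86% lower, so the 1 that fell is near the share over all genes. Those that rose were Npm1 by 1.25, Ncl by 0.90, Nhp2 by 1.84 and Gnl3 by 1.79, and Nob1, which cuts the precursor of small subunit RNA, fell by 1.05 (limma adjusted p = 0.28). Of 10 regulators, Larp1 rose by 0.81 and Eif4ebp1 by 0.73 while Rptor, the scaffold of mTOR complex 1, fell by 1.75 (limma adjusted p = 0.018). In EAE-vehicle astrocytes, where 2.69% of all genes were called higher and 4.01% lower, 3 of 3 ribosomal proteins under other names rose, among them Fau by 1.73 and Rack1 by 1.35. There 6 of the 15 other TOP mRNAs rose, with a median of 1.05, led by Eef1a1 at 1.42, and 0 of the 20 biogenesis genes were called in limma at an adjusted or an unadjusted p under 0.05. Among the regulators Eif4ebp1 rose by 2.36 and Rps6kb2 fell by 2.60 in astrocytes.

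The length of a gene moved with its change in microglia. Among protein-coding genes outside the 91 with a mean of at least 5, the median change in EAE was 1.20 for exon lengths under 1000 bases, 0.60 for 1000 to 2000, 0.26 for 2000 to 4000 and 0.00 above 4000. The core genes had medians of 1.88, 1.91, 1.499 and 1.89 in the same 4 classes, with 10 of 10, 32 of 32, 25 of 29 and 6 of 6 called higher, so the median was 1.89 in the longest class and 1.88 in the shortest. Across the 77 genes the change and the log2 exon length had r = -0.23. Monocyte and neutrophil markers averaged 3.36 to 7.87 over naive and 3.60 to 7.84 over EAE-vehicle microglial libraries, summed over 9 genes 30.2 to 70.9 and 32.4 to 70.5 with none at 0 in all. T cell markers were near 0 in both, at 0.41 to 0.73 and 0.46 to 1.02. With the mean of the T cell markers as a covariate, an alternative added after the data were seen, 78 of the 91 genes rose and 1 fell. As these markers hardly differed between the groups, the covariate could change little here, and nothing is concluded from it. The monocyte and neutrophil markers were not used as a covariate, and the part of such cells in the microglial values was not tested.

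In astrocytes too the core genes that passed the cutoff in EAE were all higher, but fewer of them passed. Of the 77 core genes 51 rose and 0 fell, 27 of 46 of the large and 24 of 31 of the small subunit, against 2.69% of all genes called higher and 4.01% lower. The medians were 1.01 and 1.20 on the log2 scale, folds of 2.02 and 2.29. Groups were apart in 24 of the 77, against 1.02% of all genes. A limma adjusted p under 0.05 was reached by 4 genes, among them Rpl41, Rps19 and Rpl4, and 0.342% of all genes had such a rise. Rpl41 stood at 7.76, 8.15, 7.29 and 8.31 in naive and at 8.83, 9.34 and 9.66 (lowest, median and highest of 6) in EAE-vehicle astrocytes, a rise of 1.41 (SE 0.23, limma adjusted p = 0.0090) without overlap. Rps19 stood at 6.53, 5.69, 5.75 and 6.39 against 7.27, 8.20 and 8.94, a rise of 2.09 (SE 0.36, limma adjusted p = 0.0117). Both reached the smallest exact permutation p, 0.0048. Rpl4, which lines the exit tunnel, rose by 1.52 (SE 0.31, limma adjusted p = 0.043).

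**Figure D4:**
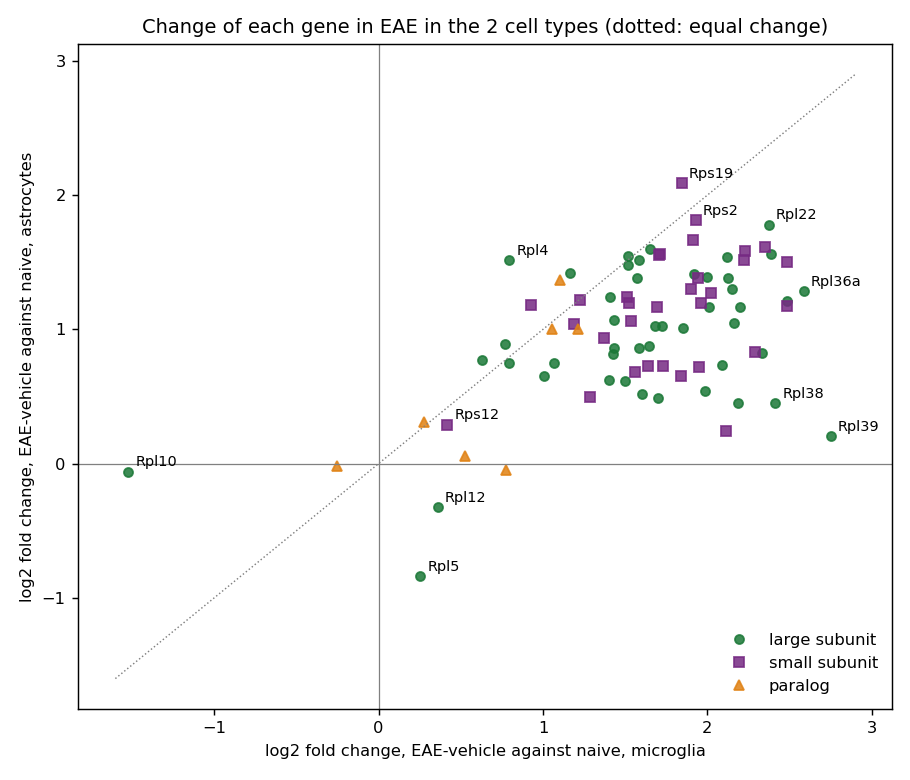
Log2 fold change of EAE-vehicle against naive in microglia (x axis) and astrocytes (y axis) for the large subunit genes, small subunit genes and paralogs, a point per gene. Of the 77 core genes 69 lie below the dotted line of equal change, Rpl10 lies to the left of 0, and Rpl5 and Rpl12 lie below 0 in astrocytes.

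Rpl23 rose in astrocytes by 1.38 (SE 0.34, limma adjusted p = 0.094), Rps6 by 1.06 (SE 0.39, limma adjusted p = 0.44) and Rpl15 by 1.02 (SE 0.39, limma adjusted p = 0.48), each with overlapping groups, and Rps6 lost the call without naive 3. Among the stalk genes Rplp0 rose by 1.55 and Rplp2 by 1.17, and Rplp1 stood at 0.86 without being called. Rpl22 had the largest change of a large subunit gene, 1.78 (SE 0.82), and it had no signal in the library naive 2 while the other naive libraries stood at 4.51, 4.33 and 4.53. The same 3 paralogs as in microglia were called, Rpl22l1 at 1.37, Rps27l at 1.00 and Rpl36al at 1.00, with limma adjusted p of 0.38, 0.62 and 0.61, and each lost the call without naive 4. Rpl36al and Rps27l lost it without any of 6 further libraries, among them naive 3 and EAE-vehicle 3, 4 and 6. Of 6 copies 0 were called in limma, at an adjusted or an unadjusted p under 0.05, and of 178 pseudogenes with ribosomal protein names 0 rose and 1 fell. Beside these counts and that of the paralogs, 2.69% of all genes were called higher and 4.01% lower.

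The genes called in astrocytes were a subset of those called in microglia. Of the core genes 51 rose in both cell types, which is 69.9% of the microglial and 100.0% of the astrocytic calls, 22 in microglia alone, 0 in astrocytes alone and 4 in neither. Nearly all of the 77 were called in microglia, so most of any set of astrocytic calls would fall among them. The share of all genes called in both cell types is not given here. The 4 were Rpl5, Rpl10, Rpl12 and Rps12, at -0.84, -0.06, -0.33 and 0.29 in astrocytes. Across the 77 genes the changes in both cell types, which share no library, had r = 0.45. A call in microglia without a call in astrocytes is no difference by itself, so the difference of the changes was tested in 1 fit of all 30 libraries. It was greater in microglia for 16 core genes and smaller for 0, against 4.97% of all genes called greater, and 0 passed at a limma adjusted p under 0.05, with 16 at an unadjusted p under 0.05.

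Rpl38 led these 16. Rpl38 (11:114668524-114672331, plus strand), a small large subunit protein needed for translation of a set of Hox mRNAs, stood at 4.98, 4.51, 5.26 and 6.20 in naive and at 6.74, 7.78 and 8.32 (lowest, median and highest of 6) in EAE-vehicle microglia, a rise of 2.41 (SE 0.39, limma adjusted p = 0.0018). In astrocytes it stood at 5.05, 6.17, 5.28 and 6.32 against 5.33, 6.26 and 6.68, a change of 0.45 (SE 0.35) with the groups overlapping. The difference between the cell types was 1.96 (SE 0.51, limma adjusted p = 0.058). The other 15 differed by 0.87 (Rps25) to 2.55 (Rpl39), among them Rpl27a at 1.73 and Rpl23a at 1.51. With each library centred on its median, 4 genes were called greater and 1 smaller in place of the 16.

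Markers of other cell types moved with EAE in the astrocytic libraries. The mean of 9 T cell markers was 0.34 to 1.27 in naive, 1.40 to 5.79 in EAE-vehicle and 1.39 to 5.47 in EAE-RIPK1inh astrocytes, summed levels of 3.07 to 11.4, 12.6 to 52.1 and 12.5 to 49.3, with none at 0 in all. Oligodendrocyte markers averaged 6.63, 8.77 and 8.54 in these groups, monocyte and neutrophil markers 0.80, 4.00 and 3.57 with Ly6g at 0 throughout, and microglia markers 1.88, 3.98 and 3.36. The library EAE-vehicle 4, with the lowest T cell mean of its group at 1.40, had a core mean of 6.20, above the highest naive value of 5.40. Its T cell mean was above the highest naive value of 1.27 as well. Its oligodendrocyte and microglia means were 8.62 and 3.60, against highest naive values of 7.39 and 2.68. The monocyte and neutrophil mean of this library was also above the highest naive value. With the T cell mean as a covariate 15 of the 91 genes were called in place of 54. As this mean did not overlap between naive and EAE-vehicle astrocytes, the covariate cannot be separated from the group, and nothing is concluded from this count. The part of such cells in the astrocytic values was not tested. By exon length the change in astrocytes was 0.38, 0.20, 0.10 and -0.01 for other genes and 0.84, 1.26, 0.86 and 1.30 for the core genes, from the shortest to the longest class, and the change of the core genes and their length had r = 0.01.

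In microglia 1 of the 77 core genes was called between EAE-RIPK1inh and EAE-vehicle mice, and this count depended on the fit. It was lower with the inhibitor and 0 were higher, with 35 above and 42 below 0, while 1.06% of all genes were called higher and 0.701% lower. Over all 91 genes the count of 1 became 14 with library quality weights, 13 lower and 1 higher, and 4, all lower, when the fit held only the groups compared. The median was 0.01 for the large subunit and -0.04 for the small subunit. The library EAE-RIPK1inh 3 had a core mean of 7.62, against 6.86 to 7.01 in the other inhibitor libraries. At a limma adjusted p under 0.05 there were 0 genes, and at an unadjusted p under 0.05 there was 1, Rpl38. It stood at 6.84, 6.94, 7.53, 6.23 and 6.53 in EAE-RIPK1inh microglia against 6.74 to 8.32 in EAE-vehicle, a change of -0.83 (SE 0.36, limma adjusted p = 0.93, exact permutation p = 0.052). The groups overlapped, and the call was lost when any of 6 libraries was left out: EAE-vehicle 3, 5 or 6, or EAE-RIPK1inh 1, 4 or 5. Rps19 changed by 0.05 (SE 0.18), Rpl15 by 0.24 (SE 0.19) and Rps6 by 0.26 (SE 0.16), none of them called. Against naive microglia, 73 of the 77 were higher in EAE-RIPK1inh mice with a median of 1.73 and 61 at a limma adjusted p under 0.05, where 5.35% of all genes were called higher and 4.71% lower. Among the smallest p were those of Rps6 at 1.79 and Rps2, which lies at the mRNA entry channel, at 2.28. This comparison shares its naive libraries with the other.

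In astrocytes most core genes had a lower mean with the inhibitor than with the vehicle, and few of them were called. Against EAE-vehicle 8 of 77 were called lower and 0 higher, 4 of each subunit, where 1.18% of all genes were called lower and 1.84% higher. None had a limma adjusted p under 0.05, all 8 being at 0.84, and 8 had an unadjusted p under 0.05. The median was -0.33 for the large and -0.44 for the small subunit, with 70 of 77 below 0 and 31 of 31 of the genes without the confounded mark, while the median over all genes tested was -0.03. These counts describe genes measured in the same mice, and genes do not stand for mice. The core mean per library overlapped between the groups, at 5.81 to 6.74 with the vehicle and 5.67 to 6.28 with the inhibitor.

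Rpl37a (1:72711290-72713813, plus strand) shared the lowest p by permutation with Rpl23a. It stood at 7.33, 7.72 and 7.87 (lowest, median and highest of 6) in EAE-vehicle and at 6.76, 6.59, 7.22, 7.01 and 5.37 in EAE-RIPK1inh astrocytes, so every treated library was below every vehicle library, and the change was -1.07 (SE 0.32, limma adjusted p = 0.84, exact permutation p = 0.0022). Rpl23a, at a mean of 5.37 against 6.14 with the vehicle, was apart too and had the same permutation p, but its change of -0.77 (SE 0.37) was not called. Rpl41 stood at 8.83, 9.34 and 9.66 against 8.37, 8.64, 8.60, 8.37 and 8.78, also apart, with a change of -0.74 (SE 0.22, exact permutation p = 0.0043). Rpl23 (11:97777527-97782437, minus strand) stood at 6.60, 7.00 and 7.40 against 6.28, 6.46, 6.03, 6.24 and 6.20, apart as well, with a change of -0.77 (SE 0.31, exact permutation p = 0.0043), and lost the call without EAE-vehicle 6 or EAE-RIPK1inh 3. The share of all genes that were apart in this comparison is not given here, so the separation of these genes has no background beside it. Against naive astrocytes the treated mice stood at 0.53 for Rpl37a, 0.67 for Rpl41 and 0.61 for Rpl23, of which only Rpl41 was called higher.

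The other 5 called genes, among them Rpl35 at -0.97 (SE 0.45), Rps16 at -0.85 (SE 0.39), Rps13 at -0.76 (SE 0.35) and Rps18 at -0.69 (SE 0.31), had overlapping groups. Rps6 changed by -0.64 (SE 0.36) and Rpl15 by -0.71 (SE 0.36) and neither was called. The count of 8 fell to 2 without EAE-vehicle 6, to 3 without EAE-vehicle 5, EAE-RIPK1inh 1 or EAE-RIPK1inh 5 and to 5 without EAE-vehicle 3 or EAE-RIPK1inh 2, and it was highest at 12 without EAE-RIPK1inh 3. The paralogs followed without a call, Rpl22l1 at -0.28, Rpl36al at -0.21 and Rps27l at -0.36, and Rpl7l1 at -1.10 (SE 0.66) with 1 treated library at 1.35 and the others at 4.08 to 5.36. Fau fell by 1.06 (limma adjusted p = 0.84) among the 3 ribosomal proteins under other names, and 0 of 15 other TOP mRNAs were called, in limma at an adjusted or an unadjusted p under 0.05.

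**Figure D5:**
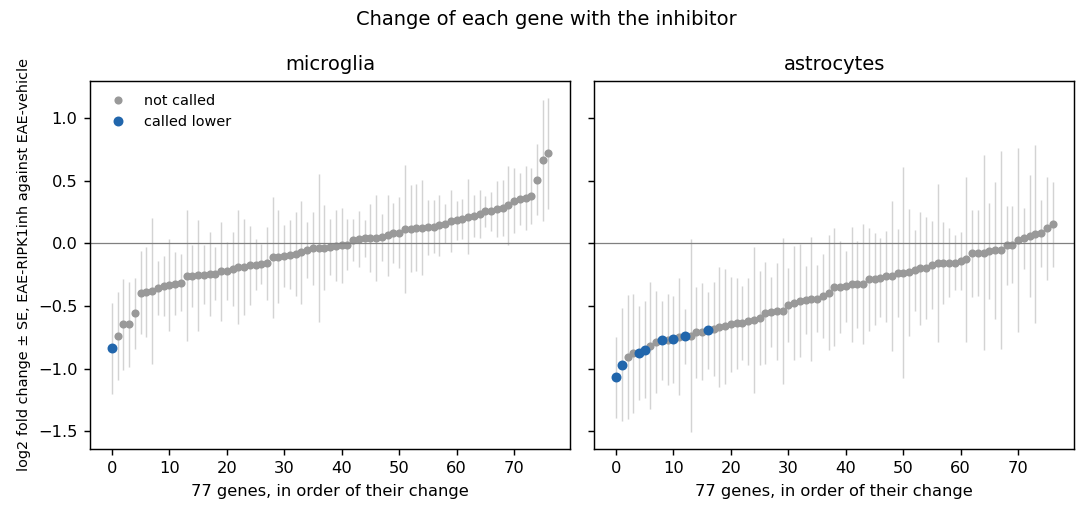
Log2 fold change with SE of EAE-RIPK1inh against EAE-vehicle for the 77 core genes, in order of their change, in microglia (left) and astrocytes (right). Blue points are the 1 gene in microglia and the 8 in astrocytes called lower; in microglia 42 and in astrocytes 70 of the 77 lie below 0.

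The group means fell in a different order in each cell type. In microglia the naive mean was the lowest of the 3 for 75 of the 77 genes, with the inhibitor below the vehicle in 41 and above it in 34. The microglial library EAE-RIPK1inh 3 had a core mean of 7.62. The other inhibitor libraries of microglia stood at 6.86, 6.89, 6.90 and 7.01, below the EAE-vehicle mean of 7.09. That library also had the highest T cell mean (2.16) and monocyte and neutrophil mean (9.12) of the microglia. Its part in this order was not tested. In astrocytes the naive mean was the lowest for 72, with the inhibitor between naive and vehicle in 66 and above the vehicle in 6. Against naive astrocytes 23 of the 77 were higher in EAE-RIPK1inh mice, where 1.98% of all genes were called higher and 2.64% lower, with a median of 0.66 and 0 at a limma adjusted p under 0.05 (24 at an unadjusted p under 0.05). Rps19 led at 1.67 (SE 0.37, limma adjusted p = 0.17), and Rpl11 stood at 1.504. Without EAE-RIPK1inh 3 the count over all 91 genes went from 24 to 14, and without naive 3 to 15, while library quality weights gave 46, all higher, and a mean of at least 1 gave 15. The T cell markers averaged 4.34 with the vehicle and 3.65 with the inhibitor, and with their mean as a covariate 4 of the 91 genes in place of 8 were called between these groups and 4 in place of 24 against naive. Their mean did not overlap between naive and EAE-RIPK1inh astrocytes, so nothing is concluded from the count against naive. The library EAE-RIPK1inh 1, with a T cell mean of 1.39, had a core mean of 5.79, above the highest naive value and below the lowest EAE-vehicle value of 5.81. Its T cell mean was above the highest naive value of 1.27 as well. Its oligodendrocyte, microglia, and monocyte and neutrophil means were 8.25, 2.94 and 1.94, against highest naive values of 7.39, 2.68 and 1.75.

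The difference of the inhibitor's change between the 2 cell types was tested gene by gene as well. The change with the inhibitor was greater in microglia than in astrocytes for 6 core genes and smaller for 0, against 1.49% of all genes called greater, with 0 at a limma adjusted p under 0.05 and 6 at an unadjusted p under 0.05. They were Rpl29 at 1.18, Rps2 at 1.14, Rps7 at 1.00, Rpl37a at 0.97, Rpl15 at 0.95 and Rps6 at 0.89, all at a limma adjusted p of 0.95. Rps2 stood at 7.01, 7.15, 8.31, 7.45 and 7.47 with the inhibitor against 6.99 to 7.25 with the vehicle in microglia, and at 6.03, 6.06, 7.09, 6.08 and 5.75 against 6.07 to 7.80 in astrocytes.

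Core genes with and without a run of pyrimidines near the start, before or after it, were set side by side. In microglia in EAE the median was 1.66 over the 32 core genes with a run of at least 8 and 1.73 over the 25 without, with 30 and 23 called higher. In astrocytes the medians were 1.05 and 1.20, with 21 and 18 called higher, and with the inhibitor against vehicle in astrocytes -0.35 and -0.46. With runs followed past the edges of the window the medians were 1.703 over 41 and 1.701 over 16 in microglia, 1.06 and 1.19 in astrocytes, and -0.48 and -0.41 with the inhibitor in astrocytes, where the order of the medians turned. These medians are descriptions of the 57 core genes that have a RefSeq start in the table used.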

How the data were processed

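Oligo(dT)-selected mRNA of sorted spinal cord microglia and astrocytes, 15 libraries each, was reverse transcribed, amplified and cut with Tn5. The reads went through OmicSoft Array Studio, and the authors deposited log2 FPKM values with a table of other gene annotation (name, source, position, exon length, confounded mark). The aligner, build and offset before the logarithm are not given in the sources used here. All 91 genes matched GENCODE vM21 (GRCm38) in position. The sorted values were identical in all 30 libraries, with 7971 genes at 0 in each, so a difference is relative to the other genes and depth is unknown. That a gene has no signal was inferred from the row order of the lowest values.

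Groups were taken from the labels, and each library is treated as 1 mouse. Limma 3.58.1 (R 4.3.3, lmFit and eBayes with a variance trend) was fitted to the deposited log2 values, per cell type over its 3 groups, and over all 30 libraries for differences between cell types. Genes with 1 value throughout a fit were left out (Rpl9-ps1 in microglia). Benjamini-Hochberg values ran over all genes tested, and exact permutation tests were two-sided. The study names a paired test, but the labels pair no mice. Counts and motifs were computed in Python 3.11.15. The fits were tested on simulated data. Alternatives were a filter on low values, an offset added before the logarithm, centring, quality weights, no variance trend, fewer groups, covariates, a replicate block, an adjusted cutoff and leaving out libraries.

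The members and lists were chosen with earlier results of these data known. The rule named every paralog, the 3 called genes of smallest p per direction in each comparison within a cell type, called genes opposite to most, the 3 highest and 3 lowest genes per cell type, and Rpl23, Rpl15 and Rps6. Other genes given with values, such as Rpl39, Rpl36a, Rpl5, Rpl12, Rps12, Rpl22, Rpl10a, Rpl23a and the stalk genes, were chosen after their values were seen. Some genes that the rule or the lists hold are not reported here, though they stay in the fits and counts.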

Additional observations from a re-analysis of the deposited data

Results flagged for a closer look

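In 4 of 105 groups of 4 to 6 libraries tested, a single library stood far from the others by Dixon's criterion, which chance gives in about 1 of 20 groups. Rpl15 was at 6.66 in microglia EAE-RIPK1inh 3 against 5.80 to 5.99 in the other 4 libraries of the group. Rps2 was at 7.09 in astrocytes EAE-RIPK1inh 3 against 5.75 to 6.08. Rpl23 was at 6.74 in astrocytes naive 4 against 5.12 to 5.40. Rps14 was at 7.47 in astrocytes EAE-RIPK1inh 1 against 8.49 to 8.90, the only low value of the 4.

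Of the 22 genes named by the rule, 6 differed between microglia and astrocytes at an unadjusted p under 0.05 in the limma fit of all libraries, and none at an adjusted p under 0.05. The count runs over both comparisons given below. Over all genes 4.97% were called greater in microglia in EAE and 1.49% with the inhibitor. The rule took some of these genes for a small p within 1 cell type of the same libraries. Such a choice favours a difference, so nothing is concluded from the count. In EAE-vehicle against naive, the change was greater in microglia by 1.96 for Rpl38 (limma adjusted p = 0.058) and by 0.91 for Rps14 (limma adjusted p = 0.45). In EAE-RIPK1inh against EAE-vehicle it was greater in microglia by 1.14 for Rps2, 0.97 for Rpl37a, 0.95 for Rpl15 and 0.89 for Rps6, each at a limma adjusted p of 0.95.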

How the results depend on the processing

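Of the 91 genes, 79 were called in EAE-vehicle against naive microglia, 54 in the same comparison of astrocytes, 1 and 8 with the inhibitor against vehicle, 76 and 24 with the inhibitor against naive, 16 and 6 in the differences between cell types in EAE and with the inhibitor, and 18 between the naive cell types. Without the genes marked as confounded these counts were 33, 22, 1, 3, 31, 7, 5, 4 and 5, which follows in part from the fewer genes counted. At an adjusted p under 0.05 in limma they were 69, 4, 0, 0, 63, 0, 0, 0 and 8. A mean of at least 1 gave 2 and 4 for the inhibitor against vehicle, 15 for the inhibitor against naive in astrocytes and 2 for the inhibitor difference. Centring each library on its median gave 2 and 4 for the inhibitor and 5 for the EAE difference. Library quality weights gave 14 in microglia with the inhibitor and 46 in astrocytes against naive, no variance trend 14 in astrocytes with the inhibitor, and fits of the compared groups only 4 in microglia with the inhibitor and 10 between naive cell types. The T cell marker covariate, added after the data were seen, gave 15 in astrocytes in EAE, 4 with the inhibitor and 4 against naive. The cause of these shifts was not tested.

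With the replicate number as a block the counts were 78, 36, 1, 2, 77, 17, 17, 8 and 20 in the same order, the 1 in microglia with the inhibitor then being called higher. Deviations of same-numbered libraries from their group means correlated at -0.156 to 0.24 across genes, and no comparison had every pair above 0.1, so the numbers were not taken to pair the mice. Leaving out each library in turn gave 77 to 80, 40 to 57, 0 to 3, 2 to 12, 74 to 77, 14 to 27, 8 to 25, 2 to 11 and 15 to 19. The EAE difference was 8 without microglia naive 2, 10 without astrocytes naive 4 and 25 without microglia naive 4. The inhibitor difference was 2 without astrocytes EAE-RIPK1inh 5, 10 without astrocytes EAE-vehicle 1 and 11 without astrocytes EAE-RIPK1inh 3. In microglia with the inhibitor, each of the 11 omissions of a vehicle or inhibitor library moved the count of 1, to 0, 2 or 3.

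Of 1234 values of single named genes under the alternatives, 1144 kept their direction and side of the cutoff, 54 lost a call, 19 gained one and 17 changed sign, all 17 in values that were not called. In microglia in EAE Rpl7l1 was -0.27 with quality weights and -0.34 (without naive 4) to 0.59 leaving out single libraries, and in astrocytes -0.21 with quality weights. Against naive with the inhibitor in microglia it was -0.41 with quality weights, -0.0033 with the block, -0.17 with a covariate of genes detected and -0.55 (without naive 4) to 0.38 leaving out single libraries, below 0 also without EAE-RIPK1inh 1, 2 or 5. With the inhibitor in microglia, leaving out single libraries gave -0.33 to 0.0409 for Rpl7l1, -0.0387 to 0.26 for Rpl22l1, both turning without EAE-RIPK1inh 3, and -0.12 (without EAE-RIPK1inh 2) to 0.56 for Rpl39l. Quality weights gave -0.69 for Rpl39l and -0.13 for Rpl36al there. Against naive with the inhibitor in astrocytes the T cell covariate gave -0.33 for Rpl15 and -0.19 for Rps6. Depth is unknown, which limits what a low value such as those of Rpl3l, Rpl10l and Rpl39l can show.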
